A study of Mus musculus with 19 samples.

Results

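The genes described here are 10 members of the Eph and ephrin family, taken as a given list: the EphA receptors Epha3, Epha4 and Epha7, the EphB receptors Ephb2, Ephb3 and Ephb4, the ephrin-A ligands Efna1 and Efna5, and the ephrin-B ligands Efnb1 and Efnb2. All 10 were among the 24421 gene rows of the 'HEART' counts and among the loci of the 'SHF' table, and all 10 passed the filter on low counts. Eph receptors are receptor tyrosine kinases, and their ligands, the ephrins, are held on the surface of neighbouring cells, so signalling needs contact between cells and can run into both of them. EphA receptors mainly bind the GPI-anchored ephrin-A proteins and EphB receptors mainly bind the transmembrane ephrin-B proteins, with Epha4 a receptor for both classes. The pathway is best known for repulsion at tissue boundaries and on migrating cells, and in the vasculature ephrin-B2 marks arteries and its receptor EphB4 marks veins.

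RNA was sequenced from single E9.5 mouse embryos of 2 genotypes. The conditional mutants (cKO) were Mesp1-Cre; Chd7 fl/fl and the controls were Mesp1-Cre, so both groups carried the Cre allele, which is active in the early mesoderm that gives rise to the heart and most of the pharyngeal mesoderm. Chd7, which encodes a chromatin remodeller, was thus not targeted in neural crest, endoderm and ectoderm, which lie largely outside that lineage. 'HEART' samples (4 control and 4 cKO) held the outflow tract and heart tube of 1 embryo each and were poly(A) mRNA libraries, and 'SHF' samples (5 control and 6 cKO) held the distal pharyngeal apparatus and were ribosomal RNA-depleted total RNA libraries. Of 11 embryos, 8 gave both dissections, so the dissections are not independent. 'HEART' counts summed to between 8640839 (cKO replicate 3) and 15030099 (control replicate 1) per sample. 'SHF' was deposited as 1 FPKM value per genotype, with no values per sample, so no spread is given and no test was made here.

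Chd7 averaged 232 ± 7.57 CPM (counts scaled to a common library size by TMM, SD, n = 4) in control 'HEART' samples and 35.6 ± 10.7 CPM in cKO samples. In 'SHF' the authors' value for Chd7 was 28.2 FPKM in controls and 18.9 FPKM in cKO. Cardiomyocyte genes were the bulk of the markers in 'HEART', with Actc1, the cardiac actin, at 15280 CPM or more in every sample. Xist, expressed from the inactive X chromosome of females, stood at 61.4 CPM in control replicate 1 and at most 1.28 CPM in the other 3 controls. It was between 34.6 and 86.3 CPM in the cKO samples, so the genotypes were unequal in it. Only control replicate 1 lay in the cKO range, so differences of sex and of genotype largely cannot be told apart in 'HEART'.

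The stretches before the start sites of Epha7, Epha3 and Ephb2 are given here because these are the members whose transcripts passed the test in 'HEART'. They are the 250 bases upstream of the first RefSeq start of each gene on GRCm38.p6, written 5′ to 3′ on the strand of the gene. Capitals mark AGATAA, a form of the GATA factor motif, and GGGCGG, the GC box, each searched on both strands.
Epha7: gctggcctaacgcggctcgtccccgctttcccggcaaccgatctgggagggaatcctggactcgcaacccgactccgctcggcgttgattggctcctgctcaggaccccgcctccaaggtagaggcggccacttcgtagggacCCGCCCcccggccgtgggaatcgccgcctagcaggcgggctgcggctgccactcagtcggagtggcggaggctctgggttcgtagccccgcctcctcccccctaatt
Epha3: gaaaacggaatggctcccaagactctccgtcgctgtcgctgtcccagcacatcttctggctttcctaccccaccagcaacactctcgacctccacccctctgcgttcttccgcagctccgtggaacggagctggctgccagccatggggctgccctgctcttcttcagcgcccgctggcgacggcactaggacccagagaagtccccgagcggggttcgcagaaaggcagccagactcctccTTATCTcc
Ephb2: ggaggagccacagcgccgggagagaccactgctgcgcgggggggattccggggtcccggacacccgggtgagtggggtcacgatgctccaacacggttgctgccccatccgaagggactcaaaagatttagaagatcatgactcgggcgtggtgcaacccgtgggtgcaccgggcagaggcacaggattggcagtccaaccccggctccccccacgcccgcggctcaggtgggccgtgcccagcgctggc
The Epha7 sequence is chr4:28812881-28813130 on the plus strand and holds 1 GGGCGG match, read as its reverse complement. The Epha3 sequence is chr16:63864176-63864425 on the minus strand and holds 1 AGATAA match, also as its reverse complement, close to the start site. The Ephb2 sequence is chr4:136836013-136836262 on the minus strand and holds neither. AGATAA occurs in 9.99% and GGGCGG in 32.7% of the 32851 RefSeq promoter windows of this length. The 3 windows hold 25, 16 and 20 CpG, in the order printed, where the median window holds 6. The members that did not pass were all above that median too, from 12 (Ephb4) to 32 (Efna5). Upstream windows were found for all 10 members, and these matches are descriptions of letters and not of binding.

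The question of the 'HEART' comparison was which of these genes differed in the heart tube when Chd7 was deleted from the Mesp1 lineage. Of the 10 members, 3 passed an adjusted p of 0.1 (edgeR quasi-likelihood test, Benjamini-Hochberg adjustment over 12694 genes): Epha7 and Epha3 were lower and Ephb2 was higher in cKO. Across all genes tested 6.44% passed, 3.51% higher and 2.92% lower (446 and 371 genes). On total counts without TMM scaling the balance turned, with 360 genes higher and 478 lower. The remaining 7 members did not pass. Groups did not overlap for 2 members, Epha7 and Epha3, against 10.2% of all genes tested. The median log2 fold change of the 10 members was -0.06, beside -0.01 over all genes tested, with 4 members above 0 and 6 below. In bulk tissue fewer cells of a type and less RNA per cell cannot be told apart.

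**Figure D1:**
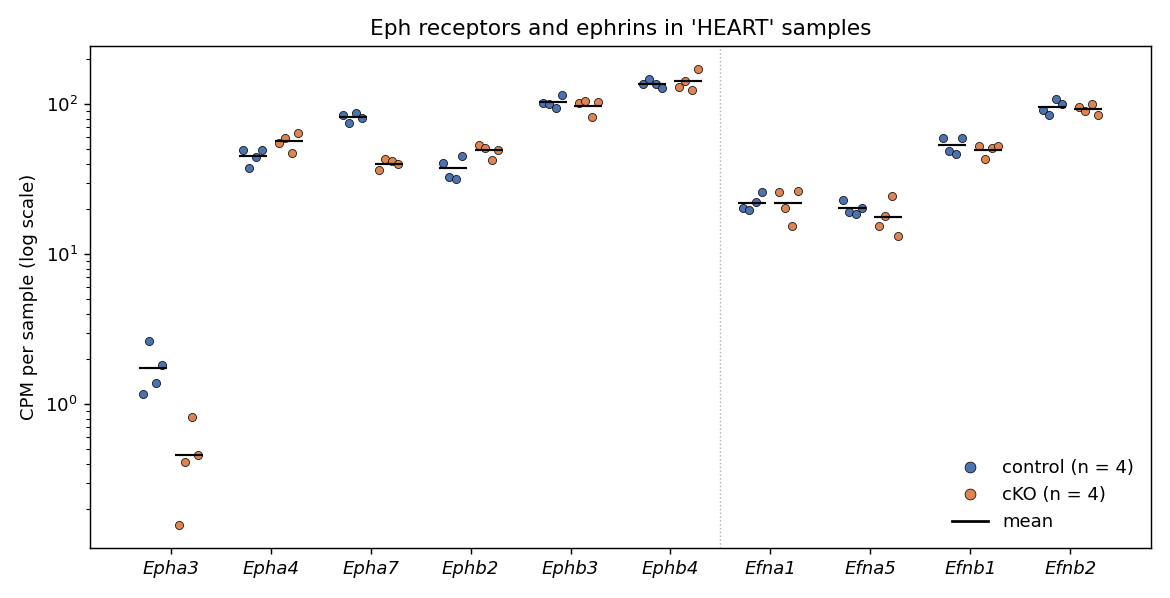
CPM of the 10 members (x axis) in each 'HEART' sample on a log y axis, with blue points for control and orange points for cKO (n = 4 each), a bar at each mean, and receptors to the left of the dotted line. The cKO points of Epha7 (36.2 to 43.0 CPM) and of Epha3 (0.157 to 0.819 CPM) all lie below the control points, and the groups of the other 8 genes overlap.

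Epha7, an ephrin-A receptor known for repulsive guidance in the nervous system, had the smallest p of the 10 members. It is on chromosome 4 (28813131 to 28967499, plus strand, GRCm38). Its controls were at 84.6, 75.1, 87.9 and 80.9 CPM, and its cKO samples at 36.2, 43.0, 41.9 and 39.6 CPM. The lowest control stood well above the highest cKO sample, and the spread within each genotype was small (coefficients of variation of 6.64% and 7.53%). The fitted fold change was -1.03 ± 0.08 on the log2 scale (SE), a 2.05-fold lower level in cKO, with an adjusted p of 2.44e-05 from edgeR. Under 18 of 18 other settings Epha7 remained past the threshold, with fold changes between -1.07 and -0.98. The fit with log2 Xist as a covariate, added because Xist was unequal between the genotypes, gave the largest adjusted p of these, 0.00303. That fit leans on control replicate 1, the only control with Xist in the range of the cKO samples.

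Epha3, a receptor known in mouse for its part in forming the atrioventricular endocardial cushions, was near the lower end of what could be tested. It is on chromosome 16 (63543534 to 63864175, minus strand). Raw counts were 18, 31, 17 and 22 in controls and 2, 5, 7 and 6 in cKO samples, which correspond to 1.16, 2.64, 1.37 and 1.82 CPM and to 0.157, 0.410, 0.819 and 0.461 CPM. The cKO samples all stood below the controls, but few reads carry the difference, and the highest cKO sample was the library of lowest depth. The log2 fold change was -1.96 ± 0.44 (SE), 3.90-fold lower in cKO, with an edgeR adjusted p of 0.0236. It lost the call with log2 Xist as a covariate (-1.48, adjusted p = 0.367), and it kept it in all 8 fits that each left out 1 sample, with adjusted p between 0.0232 and 0.0857.

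Epha4, which binds ephrins of both classes, did not pass the test. Its controls were at 49.8, 37.4, 44.4 and 49.5 CPM and its cKO samples at 55.1, 59.4, 47.4 and 64.3 CPM. Only cKO replicate 3 fell within the control range. The log2 fold change was 0.32 ± 0.11 (SE), with an edgeR adjusted p of 0.142. DESeq2 put it just past the threshold (adjusted p = 0.0989), as did edgeR without cKO replicate 3 (adjusted p = 0.0683).

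Ephb2, an EphB receptor that takes part in axon guidance and, with other EphB proteins, in vessel remodelling, was higher in cKO. Its controls were at 40.2, 32.5, 31.7 and 45.1 CPM and its cKO samples at 53.5, 51.4, 42.5 and 49.4 CPM. The groups overlapped, because control replicate 4 stood above cKO replicate 3. The log2 fold change was 0.40 ± 0.12 (SE), 1.32-fold higher in cKO, with an edgeR adjusted p of 0.0849. The call was lost on total counts without TMM scaling (adjusted p = 0.117), with log2 Xist as a covariate (0.585), at a threshold of 0.05, and when control replicate 1, 2 or 3 (0.135, 0.198 and 0.208) or cKO replicate 1 or 2 (0.228 and 0.207) was left out.

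The other EphB receptors showed little difference. Ephb4, the venous receptor for ephrin-B2, was at 136, 147, 137 and 129 CPM in controls and at 130, 144, 124 and 172 CPM in cKO. Its highest value, in cKO replicate 4, stood apart from the rest, and the log2 fold change of 0.06 had an interval of 2 SE either side from -0.14 to 0.25. Its exons share 33 bases with the antisense gene Zan, and whether reads were counted by strand is not given in the sources. Ephb3, which acts together with Ephb2 in several tissues, was at 102, 99.5, 94.0 and 115 CPM in controls and at 101, 106, 81.8 and 103 CPM in cKO. Its log2 fold change was -0.07, with an interval from -0.25 to 0.11.

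None of the 4 ligands passed the edgeR test, 0 had an unadjusted p under 0.05, and DESeq2 and limma-voom called 0. Efna1, an ephrin-A known to be induced by inflammatory signals in endothelium, was at 20.4, 19.7, 22.1 and 25.9 CPM in controls and at 26.0, 20.4, 15.4 and 26.3 CPM in cKO. The cKO samples spread on both sides of the controls, and the log2 fold change was 0.01 with an interval from -0.30 to 0.32. Efna5, a ligand known for topographic mapping of axons, was at 22.9, 19.1, 18.5 and 20.2 CPM in controls and at 15.4, 18.02, 24.3 and 13.1 CPM in cKO. Of the cKO samples, 3 were below every control and 1 was above them all, with a log2 fold change of -0.20 and an interval from -0.52 to 0.12.

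Efnb1, an X-linked ephrin-B, was at 59.2, 49.0, 46.7 and 59.8 CPM in controls and at 52.8, 42.9, 50.8 and 52.2 CPM in cKO. Its groups overlapped, and control replicate 1, the control high in Xist, lay with the higher controls. The log2 fold change was -0.11 with an interval from -0.31 to 0.09. Efnb2, the arterial ephrin, was at 90.7, 84.4, 109 and 100.03 CPM in controls and at 95.1, 89.9, 101 and 84.9 CPM in cKO. All cKO values lay inside the control range, and the log2 fold change was -0.05 with an interval from -0.23 to 0.12.

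Arterial markers were measured beside Efnb2 because that gene marks arteries. Of 9 arterial genes tested 3 rose, beside 3.51% of all genes tested. They were Dll4, a Notch ligand, Gja4, a connexin gene, and Nrp1, a semaphorin and VEGF co-receptor. DESeq2 called 4 of the 9 and limma-voom 2. By sign 7 were above 0 and 2 below, Hey1 (-0.175) and Hey2 (-0.069). The summed level of the list was 740 to 775 CPM in controls and 861 to 884 CPM in cKO. Most of it was Nrp1, at 291 CPM on average in controls and 346 CPM in cKO, and Unc5b. Neither gene is restricted to arteries, so the sum is not a measure of arterial cells. Unc5b, at 216 and 251 CPM, did not pass (edgeR adjusted p = 0.129). The 9 included Gja5, whose groups overlapped at 77.4 to 99.6 and 83.0 to 134 CPM. None of 12 endothelial genes passed the edgeR test, where 3 had an unadjusted p under 0.05 and neither DESeq2 nor limma-voom called any (0 and 0). The summed endothelial level was 1095 to 1442 CPM in controls and 1121 to 1448 CPM in cKO. Their part in the values of Efnb2 and Ephb4 was not tested.

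Single genes on the marker lists of other cell types differed with genotype, while many other genes on those lists had too few reads to be tested. These values stand beside those of Epha7, Epha3 and Ephb2. Of 7 neural crest markers 3 could be tested and 2 fell, Alx1 and Twist1, a mesenchymal factor at 14.7 ± 2.19 CPM in controls and 7.74 ± 1.26 CPM in cKO (SD, n = 4). The summed level of the crest list was 68.3 to 108 CPM in controls and 59.2 to 77.7 CPM in cKO. Most of it was Ets1, at 67.9 CPM on average in controls and 59.1 CPM in cKO. Ets1 did not pass (log2 fold change of -0.20, edgeR adjusted p = 0.533). The crest genes with too few reads to be tested were Foxd3, at 0 in every sample, Sox10, between 0.157 and 2.13 CPM, Tfap2b and Tfap2a. Tfap2b was at most 0.341 CPM. Tfap2a was at 0.647 to 2.39 CPM in controls and 0.0768 to 0.706 CPM in cKO. Whether crest-derived cells were present was not tested. Of 6 genes listed for paraxial mesoderm 2 could be tested and 1 fell, Prrx1, at 8.73 to 19.2 CPM against 2.81 to 4.42 CPM. Prrx1 is a mesenchymal factor that is not restricted to paraxial mesoderm. The other, Meox1, did not pass, with a log2 fold change of 0.88 and an average of 1.30 CPM in controls and 2.37 CPM in cKO. The summed level of this list was 9.86 to 20.6 CPM in controls and 4.68 to 8.27 CPM in cKO. Most of it was Prrx1, so the sum is not a measure of paraxial mesoderm. Meox2 and Pax3 were at most 0.259 CPM. Of 8 epithelial markers 5 could be tested and 1 rose, Krt19, a keratin, at 83.4 to 144 CPM against 202 to 249 CPM, with a summed level of 247 to 502 CPM against 500 to 561 CPM. The keratins Krt8 (126 and 192.5 CPM on average) and Krt18 (81.7 and 119 CPM) were higher without passing (edgeR adjusted p of 0.135 and 0.206). Cdh1 was the 1 tested gene below 0 (-1.75). DESeq2 called 1 of the list and limma-voom 2. Epcam and Cdh1, which define epithelium, were at 9.66 CPM or less, with Cdh1 at that value in control replicate 4. Of 8 neural markers 4 could be tested and 1 rose, Nes, an intermediate filament gene that is not restricted to neural cells. The other 3 did not pass and were below 0, with log2 fold changes of -1.54 for Tubb3, -0.69 for Stmn2 and -0.61 for Pax6. Tubb3 was uneven in controls, at 2.78, 16.1, 11.3 and 1.32 CPM, and was at 1.49 to 4.30 CPM in cKO. Sox1 was at most 0.256 CPM. The neural sum was 334 to 383 CPM in controls and 391 to 498 CPM in cKO, most of it Nes. The part of these markers in the differences of the Eph receptors was not tested.

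Embryos whose codes share a prefix allowed the difference to be read within a prefix, although the labels do not say what a prefix stands for. Among the 'HEART' samples 2 prefixes held both genotypes, and the other samples shared a prefix with none or with their own genotype. For the pair of prefix E8 (control replicate 3 and cKO replicate 3) the log2 ratio was -1.07 for Epha7. For the pair of prefix E19 (control replicate 4 and cKO replicate 4) it was -1.03. Epha7 was thus nearly equal in the 2 pairs, whereas Epha3 was at -0.75 and -1.98. Ephb2 was at 0.42 and 0.13, above 0 in both. With the prefix as a random block the members past the threshold were the same 3.

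**Figure D2:**
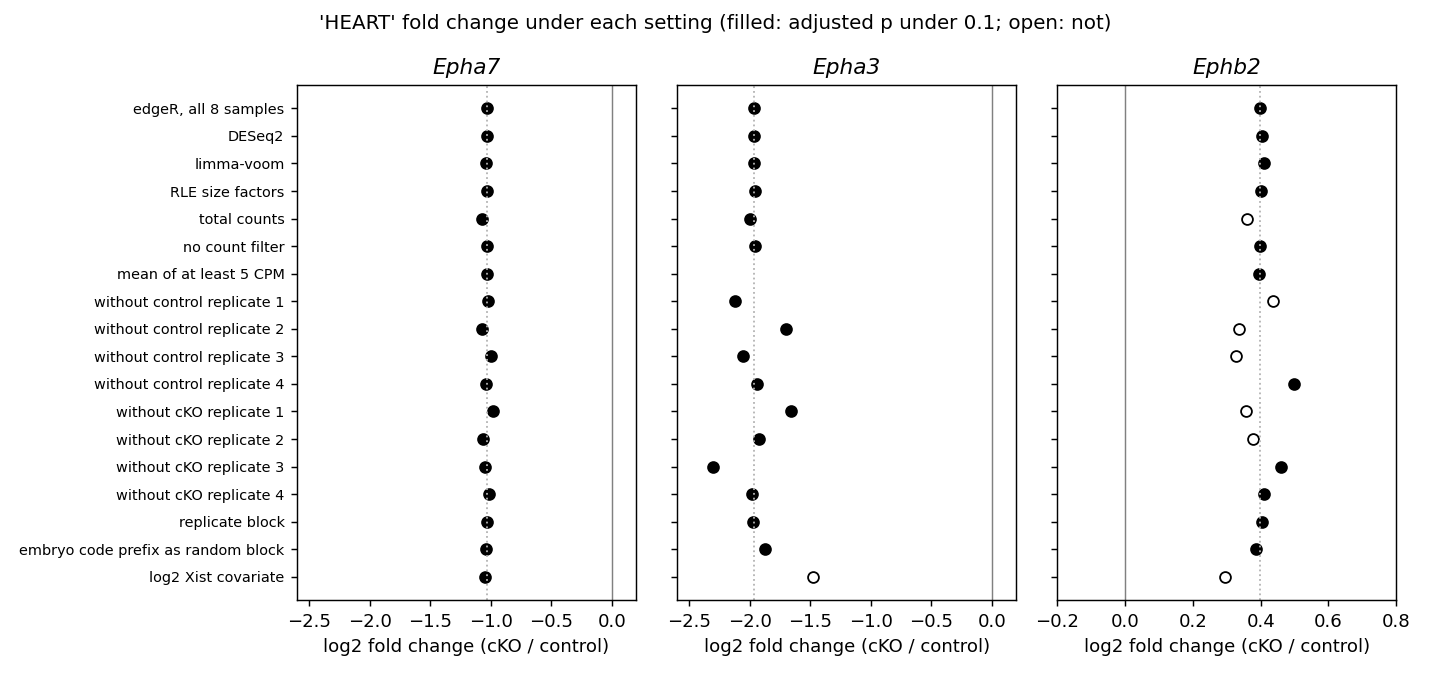
Log2 fold change of cKO over control in 'HEART' (x axes) for Epha7, Epha3 and Ephb2 under each setting (y axis), with filled points for an adjusted p under 0.1, open points for the rest, and a dotted line at the reported value. Epha7 stays between -1.07 and -0.98 and is filled throughout, Epha3 is open with the Xist covariate and could not be tested at a mean of at least 5 CPM, and 7 points of Ephb2 are open.

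Levels of different genes were compared as CPM per kilobase of annotated exon. In controls Ephb4 led with 29.6 ± 1.66 CPM per kb (SD, n = 4), and its samples did not overlap those of any other member. Efnb1 (15.6), Ephb3 (15.5) and Efnb2 (14.01) followed, and neighbours in this run overlapped, as did Efnb2 and Efna1 (12.1). Below them stood Epha7 at 8.31 CPM per kb, apart from Efna1 above and from Epha4 below. Epha4 (5.62) and Efna5 (5.01) overlapped, Ephb2 was at 2.97 and Epha3 was last at 0.201 CPM per kb. In cKO Epha7 moved from rank 6 to rank 8, at 4.06 ± 0.31 CPM per kb, where its samples overlapped those of Efna5 and Ephb2.

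The receptors and ligands were also summed by class, with the 12 other genes of the family included. The EphA sum was 20.6 ± 1.49 CPM per kb in controls and 19.6 ± 2.27 in cKO (SD, n = 4). Within it Epha7 held 40.4% in controls and 20.9% in cKO, with ranges of 37.7 to 43.7% and 19.1 to 23.7% that did not overlap. The share of Epha4 was 27.4% in controls and 36.0% in cKO, again with ranges apart (23.0 to 31.6% and 32.3 to 41.3%). Epha2, an EphA receptor outside the 10, held 26.4% and 38.7%. These shares must sum to 100%, so a lower share of one gene raises the others. The EphB sum was 50.4 ± 1.68 CPM per kb in controls and 52.6 ± 5.95 in cKO, and the ephrin-A sum was 29.4 ± 1.77 and 28.8 ± 2.75. The ephrin-B sum was 90.0 ± 9.27 CPM per kb in controls and 75.1 ± 4.42 in cKO, with overlapping ranges (79.3 to 101 and 70.9 to 80.5), and most of it was Efnb3.

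**Figure D3:**
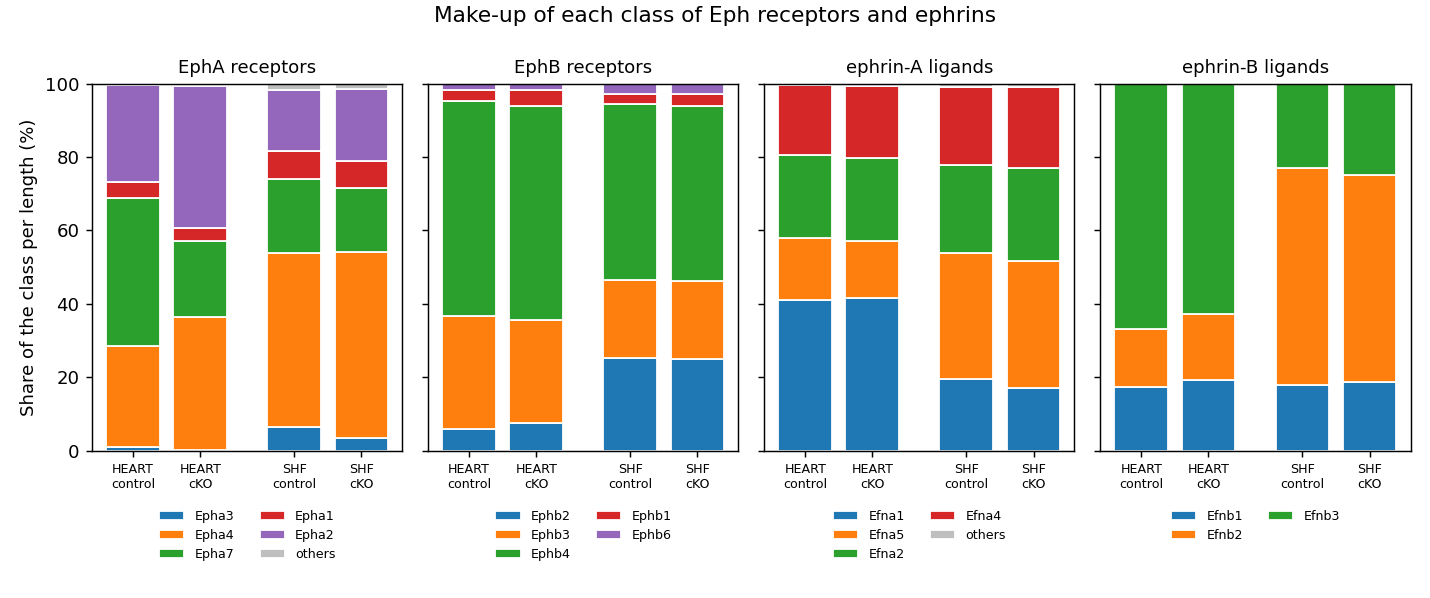
Share of each gene in the summed level of its class per length (y axis, %), from the mean of 4 samples per genotype for 'HEART' and from the authors' single FPKM value per genotype for 'SHF', with genes of at least 2% in some bar drawn in colour. Epha7 holds 40.4% of the EphA receptors in control and 20.9% in cKO in 'HEART', and 20.1% and 17.5% in 'SHF'.

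Of the 12 other genes of the family 7 passed the filter on low counts, and 1 of these passed the test. Efnb3, a transmembrane ephrin known from the nervous system, was at 223, 189, 206 and 151 CPM in controls and at 152, 148, 163 and 138 CPM in cKO. Control replicate 4 lay inside the cKO range. Its log2 fold change was -0.36 ± 0.11 (SE), with an edgeR adjusted p of 0.0851, and it passed in 1 of the 8 fits that left out 1 sample, the one without control replicate 4 (adjusted p of up to 0.254 in the others). The other 6 did not pass, with log2 fold changes between -0.45 (Epha1) and 0.66 (Ephb1). Epha5, Epha6, Epha8, Epha10 and Efna3 had too few reads to be tested.

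A list of 50 genes that act with Eph receptors and ephrins was read in the same fit, among them adaptors, kinases such as Fyn and Src, and the ephrin sheddase Adam10. None of the 47 tested passed the edgeR threshold, where 3 had an unadjusted p under 0.05 and neither DESeq2 nor limma-voom called any (0 and 0). Their median log2 fold change was 0.05, with 29 above 0 and 18 below. Without cKO replicate 4 the fit called 5 of them higher, namely Abl1, Abl2, Pik3r1, Rock2 and Sipa1l1, and without cKO replicate 2 it called Grip2 lower. These 6 names were chosen after their values were seen.

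For each member past the threshold, the 3 genes of most similar profile were sought by Pearson correlation of log2 CPM over the 8 'HEART' samples, among 10178 genes. Epha7 was most like Slitrk5 (r = 0.997), a neuronal membrane protein gene, Myl1 (r = 0.990), a myosin light chain gene, and Rgs7bp (r = 0.989), and all 3 fell in cKO by a log2 fold change of -1.87, -1.05 and -1.08. Epha3 was most like Zfp184 (r = 0.960), Rit1 (r = 0.958) and Hspb3 (r = 0.947), of which Hspb3, a small heat shock protein gene, passed the test (edgeR adjusted p = 0.0225). Ephb2 was most like Cd24a (r = 0.976), Prrg3 (r = 0.970) and Pdpn (r = 0.966), and Pdpn, which encodes podoplanin, rose by 0.61 on the log2 scale (edgeR adjusted p = 0.0100). These correlations are descriptions, since the points share the genotype difference and the libraries and the genes were the best of many.

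The 'SHF' dissection asked the same of the distal pharyngeal apparatus, from the authors' FPKM values. Of the 10 members 1 differed by 1.5-fold or more, beside 1.96% of the 11030 loci with a mean of at least 1 FPKM (0.562% higher and 1.40% lower in cKO). This was Epha3, at 3.32 FPKM in controls and 1.72 FPKM in cKO, which is 1.93-fold lower. Epha3 was lower in 'HEART' too, and the 2 dissections came largely from the same embryos. Epha7 was at 10.4 FPKM in controls and 8.84 FPKM in cKO, a 1.17-fold lower value beside the 2.05-fold difference of 'HEART', and whether the dissections differ could not be tested. Ephb2 was at 19.8 FPKM in controls and 19.6 FPKM in cKO. Epha4, which did not pass in 'HEART', was at 24.5 and 25.7 FPKM. With 1 value per genotype the error of these differences is unknown.

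The remaining receptors and ligands were close to equal in 'SHF'. Ephb4 was at 37.7 FPKM in controls and 37.5 in cKO, and Ephb3 was at 16.7 and 16.5 FPKM. Among the ligands Efna1 had the widest gap, at 15.2 FPKM in controls and 12.5 in cKO, 1.21-fold lower. Efna5 was at 26.8 and 25.5 FPKM, Efnb1 at 16.8 and 17.1 FPKM, and Efnb2 at 55.5 and 51.7 FPKM. No other gene of the family with a mean of at least 1 FPKM reached 1.5-fold, and Efnb3 was at 21.8 and 22.9 FPKM. The median log2 ratio of the 10 members was -0.05, beside -0.01 over all loci measured. Cardiomyocyte markers were lower in cKO in this dissection, with 6 of 9 lower by 1.5-fold or more and a median log2 ratio of -1.08, and Xist was at 10.1 FPKM in controls and 20.9 FPKM in cKO. Of the other marker lists, genes past 1.5-fold were Prrx1 (log2 ratio of -0.63) and Sox17 (-0.70), lower in cKO, and Pax3 (0.87), Tcf15 (0.76) and Wt1 (0.99), higher in cKO. The arterial list, with genes that rose in 'HEART', had a median log2 ratio of -0.32 in 'SHF', from -0.70 to 0.09. The part of these markers in the lower value of Epha3 was not tested.

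**Figure D4:**
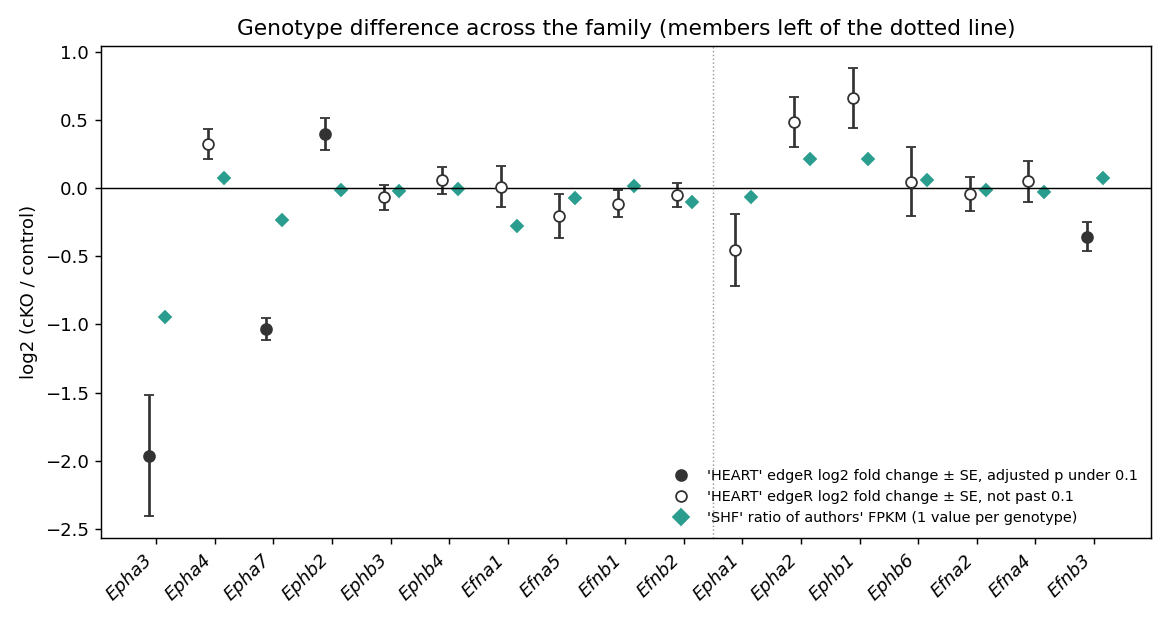
Log2 of cKO over control (y axis) for the 10 members and, right of the dotted line, the 7 other genes of the family that could be tested, as the edgeR log2 fold change ± SE in 'HEART' (circles, n = 4 per genotype, filled for an adjusted p under 0.1) and as the ratio of the authors' FPKM values in 'SHF' (diamonds, 1 value per genotype). Epha3 is low in both dissections at -1.96 and -0.95, and Epha7 is at -1.03 and -0.23.

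The 'SHF' order of levels differed from that of 'HEART', although the scales (FPKM and CPM per kb of exon) and the library types differ too, so the order is given without a test. Efnb2 led in 'SHF' controls at 55.5 FPKM, ahead of Ephb4 at 37.7 FPKM. Ephb2 held 25.3% of the EphB receptors in 'SHF' controls and 5.89% in 'HEART' controls. The 'HEART' share divides by all annotated exon of a gene, 12.6 kb for Ephb2 and 4.64 kb for Ephb4. The shares of the dissections are thus not on the same scale. Epha4 held 47.5% of the EphA receptors in 'SHF' controls, where Epha7 held 20.1%. Summed by class, the controls and cKO of 'SHF' were at 51.6 and 50.7 FPKM for EphA receptors, 78.5 and 78.4 for EphB receptors, 78.1 and 73.6 for ephrin-A ligands and 94.2 and 91.6 for ephrin-B ligands.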

How the data were processed

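RNA from single E9.5 embryos was sequenced as 8 'HEART' and 11 'SHF' samples, grouped by their titles. The authors deposited 'HEART' as raw read counts per gene (fastp 0.20.1, STAR 2.7.2b on mm10, featureCounts 1.6.4). The authors deposited 'SHF' as 1 FPKM value per genotype; the study's methods name STAR 2.5.0b, HTSeq and DESeq2, but the columns have the layout of a Cuffdiff table, and the FPKM unit was taken from that layout. The fold changes, p-values and q-values in both tables, which are the authors' own comparisons, and 8 columns of normalised values per sample were not used.

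'HEART' counts were fitted with edgeR 4.0.16 in R 4.3.3 (filterByExpr, TMM, glmQLFit and glmQLFTest of cKO against control, no covariate), with Benjamini-Hochberg adjustment over 12694 genes and a threshold of 0.1. DESeq2 1.42.0, limma 3.58.1 (voom), other scalings, filters and covariates, and leaving out each sample were tried as alternatives, and the fit was tested on simulated data. Of the 24421 rows 27 were named by a date instead of a gene. Library depth (8640839 to 15030099 counts) limits genes of few reads, such as Epha3. No pair of libraries of the same genotype agreed within sampling noise. Exon lengths and positions came from GENCODE M21 (GRCm38), which may differ from the annotation the authors counted on. In 'SHF', log2 ratios were computed for 11030 loci with 1 symbol and a mean of at least 1 FPKM, with no test. The members and lists were chosen with earlier results of these data known, so no test over a list was made. Genes named besides the 10 members were Chd7, other family genes past the threshold, up to 6 partner genes of smallest p, up to 3 genes of highest mean per marker list, and the 3 genes of highest correlation with each member past the threshold; others are named where a count or limit turns on them and were chosen after their values were seen. The marker lists for veins, epicardium and blood are given in the closing section.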

Additional observations from a re-analysis of the deposited data

Results flagged for a closer look

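Among 36 groups of 4 samples examined, 1 held a sample far from the rest, and chance flags about 1 in 20 groups. Epha2, an EphA receptor outside the 10 genes, was at 47.51 CPM in cKO replicate 2 and at 32.5, 32.3 and 30.1 CPM in cKO replicates 1, 3 and 4. Its controls were at 19.2, 30.0, 32.4 and 20.7 CPM, and its log2 fold change was 0.48 ± 0.18 (SE, edgeR adjusted p = 0.191).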

How the results depend on the processing

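Of the 10 members, Epha7 kept its direction and its call under all 18 alternatives, and the directions of Epha3, Epha4, Ephb2, Efna5 and Efnb1 were kept wherever they could be fitted. The 817 genes past the threshold became 235 with log2 Xist as a covariate, and between 500 (without cKO replicate 2) and 1421 (without cKO replicate 4) with 1 sample left out (509 without control replicate 1, 510 without cKO replicate 1). The 3 members past the threshold became 1 (Epha7) with the Xist covariate. That covariate largely follows genotype, so kept or lost calls under it do not separate sex from genotype. The 1 other family gene became 2 with DESeq2 and with no count filter, 0 with the Xist covariate and at a threshold of 0.05, and 0 to 1 with 1 sample left out. The 0 partner genes became 0 to 5 with 1 sample left out. In 'SHF' the 1 member past 1.5-fold became 0 at 2-fold and 0 at a mean of at least 5 FPKM, and the log2 ratio of Epha3 became -0.67 with 1 FPKM added. Small differences changed sign: Efna1 (0.01) was at -0.025 on total counts, -0.022 with the prefix as a random block and -0.077 to 0.14 with 1 sample left out, Ephb3 at -0.11 to 0.010, Ephb4 at -0.037 to 0.12 and Efnb2 at -0.11 to 0.013 with 1 sample left out, and Efnb2 at 0.034 with the Xist covariate. Samples of the same replicate number deviated together little (correlations of 0.084, 0.056, 0.209 and -0.056). Only the samples of number 3 were each other's best match across genotypes. No label ties a number to a litter or batch, so the numbers were not taken as pairs, although numbers 3 and 4 each share an embryo code prefix across genotypes. The replicate block gave 917 genes, 3 members and 3 other family genes (Efnb3, Epha2 and Ephb1), and put Efna1 at -0.0081. Causes were not tested. The 8 samples limit what can be seen: the biological coefficient of variation was 11.2%, and Epha3 had 2 to 31 reads per sample.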

Other observations

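In 'HEART', cKO replicate 3, the library of lowest depth, was the highest or lowest of its genotype for 8 of the 10 members, highest for Epha3, Efna5 and Efnb2 and lowest for Epha4, Ephb2, Ephb3, Ephb4 and Efna1. The other samples were extreme for between 3 and 6 members.

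The remaining marker lists did not pass the edgeR test in 'HEART'. None of 9 cardiomyocyte genes passed (1 with an unadjusted p under 0.05), and neither DESeq2 nor limma-voom called any (0 and 0). None of 4 venous and none of 4 epicardial genes passed (0 and 0 with an unadjusted p under 0.05, and 0 by DESeq2 and by limma-voom). None of 7 erythroid genes passed (2 with an unadjusted p under 0.05, and 0 by DESeq2 and by limma-voom), although all 7 were below 0. Their summed level was 4330 to 12620 CPM in controls and 1206 to 5638 CPM in cKO. Control replicate 4 was the highest control for all 7 and cKO replicate 2 the lowest cKO sample, with Hbb-y at 3821 and 395 CPM. The 7 genes varied together across samples, so their shared sign is not 7 separate observations.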
